A study of Petunia x hybrida with 6 samples.

Results

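Corolla RNA of *Petunia hybrida* holds a group of very abundant transcripts whose level changed little while the flower opened, and these are the subject here. A Trinity component, the set of assembled contigs that share sequence and carry the same number, was taken as the nearest unit to a gene or a small gene family, and the counts of its contigs were summed. Each library was divided by its median-of-ratios size factor, a scaling under which the typical component does not change, and by the mean library total, which gives counts per 1000000 (CPM). A component was called stable when its mean over the libraries was 500 CPM or more and the absolute log2 ratio of its day 2 mean to its bud mean was below 0.5, a change of less than 1.41-fold. This rule chose 115 of 80785 components, out of 310 that reached 500 CPM. The components were thus chosen by their measured level and their measured day 2 to bud ratio, and both are given below as a description and are not tested.

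The libraries came from corollas, the petal tissue, of wild-type *P. hybrida* of the cultivar Mitchell diploid, with 3 biological replicates at day 2 postanthesis and 3 at the bud stage, each from at least 8 flowers. Both stages share the wild-type genotype and the growth conditions, so the stage is the only labelled difference. Total counts were 96184358 to 111398763 in the day 2 libraries and 87419488 to 106341976 in the bud libraries, and every stable component had at least 31414 counts in every library. The median chi-square per component between libraries of a stage was 2.83 to 4.29, and no library was treated as a repeat of another. The deposited counts pair no contig with a gene name or a sequence, so petal markers could not be checked and no stable component could be named by function. None of the components that carry the numbers of the *pheP* homologues of the study (comp21511, comp18042 and comp19221) was stable in this sense.

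Opening of the petunia flower is a change of programme in the petal, in which growth by cell expansion gives way to the synthesis of scent compounds from phenylalanine. Transcripts that keep their level through such a change usually serve functions that every cell needs, such as translation, the cytoskeleton, protein turnover and central metabolism, and a transcript of this kind, *elongation factor 1-α*, is the usual reference in qRT-PCR of petunia petals. A steady sum can also be made of parts that move against each other, because one gene can give several splice forms and related genes can be assembled into 1 component. In bulk tissue, fewer cells of a type and less RNA per cell cannot be told apart.

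**Figure D1:**
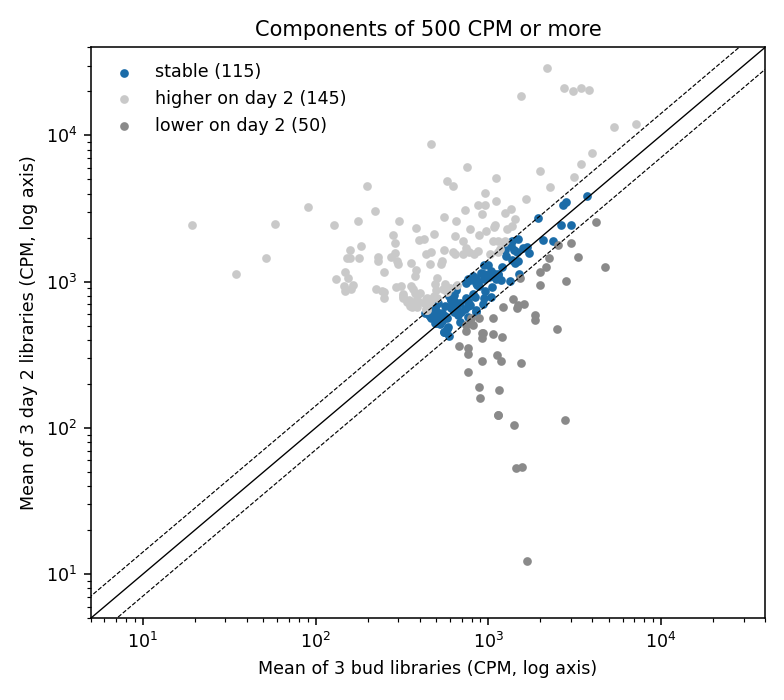
Mean CPM of the 310 components of 500 CPM or more on day 2 (vertical) and in buds (horizontal), both on log axes, with the line of equality and dashed lines at a log2 ratio of 0.5 either way. The 115 stable components lie between the dashed lines, 145 lie above them and 50 below.

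The stable components ranged from 502.5 to 3784 CPM, with a median of 759.3 CPM, and 37 of them reached 1000 CPM. The 145 other abundant components that were higher on day 2 had a median of 928.3 CPM and reached 15606 CPM, and the 50 that were lower had a median of 783.0 CPM. The 10 stable components of highest CPM took 22.2% of the CPM of all 115. The log2 ratios of the stable components ran from −0.48 to 0.50 with a median of 0.10, and 76 were above 0 and 39 below. An absolute log2 ratio below 0.25 was found for 60 of them and below 0.1 for 31.

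At the limits of the rule, the 3 stable components nearest the upper fold limit were comp16758 and comp13031, both at a log2 ratio of 0.50, and comp19729 at 0.49, and the 3 just outside were comp19721 at 0.50, comp19992 at 0.53 and comp19896 at 0.53. Nearest the lower limit were comp19582 at −0.48, comp17944 at −0.45 and comp20276 at −0.42, with comp19235 at −0.50, comp19350 at −0.51 and comp20346 at −0.52 outside. By abundance, comp19090, comp19314 and comp19617 lay just inside at 502.5, 503.0 and 505.0 CPM, and comp19670, comp19010 and comp20299 just outside at 499.97, 498.5 and 498.5 CPM. The values pass through both limits without a gap.

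The most abundant stable component was comp18289, which had 4192, 3421 and 3889 CPM in the day 2 libraries and 3677, 4003 and 3520 CPM in the bud libraries. The stages overlapped and the log2 ratio was 0.04. Its 14 contigs, the longest of 2278 bp, belonged to 1 subcomponent, and it also ranked first per length, at 2299 CPM per kilobase (RPKM) summed over contigs. Of the 10 components highest in CPM, 5 were also among the 10 highest in summed RPKM.

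The next component, comp20020, held 3474, 3503 and 3476 CPM on day 2 and 2979, 3498 and 2017 CPM in buds. Its day 2 libraries differed by a coefficient of variation of 0.459%, whereas that of the bud libraries was 26.5%, so that the log2 ratio of 0.30 lay beside a wide spread in buds. The third, comp19945, had 3659, 3281 and 3060 CPM on day 2 and 2676, 2839 and 2632 CPM in buds. Here the lowest day 2 library exceeded the highest bud library, at a log2 ratio of 0.30 and thus inside the fold limit.

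A steady mean did not always stand for steady libraries. Component comp19500, with 9 contigs of up to 8231 bp, had 1453, 2975 and 2844 CPM on day 2 and 5761, 1631 and 1591 CPM in buds, and its log2 ratio was −0.30. Bud replicate 1 was 3.97 times as high as the lowest library, the widest range among the 115. Without bud replicate 1 the log2 ratio was 0.57, and without bud replicate 2 or 3 it was −0.62 or −0.61, so that the component was stable by the rule only with all libraries or without one of the day 2 libraries.

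The spread was also wide in comp18566, which had 1845, 2472 and 1337 CPM on day 2 and 2199, 2461 and 2432 CPM in buds. Its log2 ratio of −0.33 was −0.55 without day 2 replicate 2 and −0.10 without day 2 replicate 3. In comp20318, the third replicate was the highest in each stage, with 595.5, 703.0 and 1168 CPM on day 2 and 687.1, 666.0 and 1083 CPM in buds. Component comp15630 had 562.7, 629.3 and 535.3 CPM on day 2 and 478.9, 845.3 and 974.6 CPM in buds, and without bud replicate 1 its log2 ratio moved to −0.68, against −0.41 with all libraries.

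Of the other 5 of the 10 most abundant, the stages overlapped in 3. Component comp19598 held 2611, 2233 and 2528 CPM on day 2 and 2601, 2553 and 2700 CPM in buds. Component comp14296 had 1748, 1771 and 2247 CPM on day 2 and 2013, 1968 and 2210 CPM in buds. Component comp10208, of only 3 contigs, had 1832, 1631 and 1691 CPM on day 2 and 1713, 1562 and 1771 CPM in buds. The day 2 libraries lay above the bud libraries in comp19729, with 2784, 3058 and 2302 CPM on day 2 and 1889, 2028 and 1880 CPM in buds, and in comp18780, with 1840, 2109 and 1888 CPM on day 2 and 1399, 1623 and 1440 CPM in buds. The log2 ratio of comp19729 was 0.51 without bud replicate 2 and 0.62 without day 2 replicate 3, outside the limit.

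**Figure D2:**
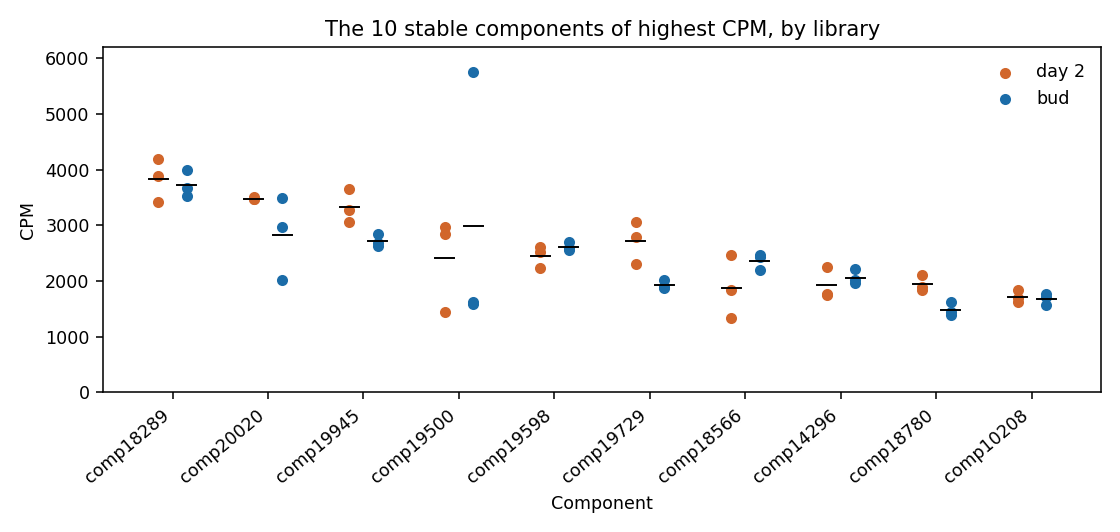
CPM of the 10 stable components of highest CPM in each of the 3 day 2 libraries (orange, left) and the 3 bud libraries (blue, right), with the stage means as lines. Bud replicate 1 of comp19500 stands at 5761 CPM, above the other points of that component, and the stages overlap in 7 of the 10, all but comp19945, comp19729 and comp18780.

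The smallest log2 ratios were those of comp20048 (−0.01), comp19494 (0.01) and comp19353 (0.01). Component comp20048 had 1127, 1083 and 1172 CPM on day 2 and 1128, 1166 and 1104 CPM in buds, and its highest library exceeded its lowest 1.08-fold. For comp19494 the values were 565.2, 531.9 and 527.4 CPM on day 2 and 530.7, 554.0 and 525.8 CPM in buds, a range of 1.07-fold and the narrowest of the 115. For comp19353 they were 644.9, 635.7 and 632.2 CPM on day 2 and 611.7, 682.9 and 599.8 CPM in buds. All 3 are large assemblies, of 55, 85 and 116 contigs.

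Over the 115 components, the highest library exceeded the lowest by a median of 1.29-fold, by less than 1.2-fold in 31 components, by less than 1.5-fold in 92 and by less than 2-fold in 113. The median coefficient of variation among replicates was 5.89% on day 2 and 4.54% in buds. It was 8.06% on day 2 and 7.52% in buds for the abundant components that were higher on day 2, and 9.07% on day 2 and 7.03% in buds for those that were lower. Narrower medians went with more contigs: components of 50 or more contigs had medians of 4.75% on day 2 and 3.40% in buds (n = 51), and those of up to 9 contigs 7.80% on day 2 and 7.24% in buds (n = 18).

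A change within the fold limit can still exceed the spread between replicates. The 3 day 2 libraries were all above the 3 bud libraries in 50 of the 115 components and all below them in 19, beside 24.7% above and 27.9% below among the 40943 components with at least 15 counts in all. In edgeR's quasi-likelihood test on component counts, 50 of the 115 had a Benjamini-Hochberg adjusted p below 0.05, beside 59.3% of the 24351 components tested. Of these, 39 were higher on day 2, beside 30.2% of all, and 11 were lower, beside 29.1%. With edgeR's exact test at a common dispersion 0 of the 115 had an adjusted p below 0.05, beside 13966 of the 24351 components tested. In that test 9 of the 115 had an unadjusted p below 0.05, against 62 in the quasi-likelihood test. The exact test is the form of edgeR test that the study describes. Since the rule used this contrast, nothing is read from the difference to the background.

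The choice of components was also repeated without each library. The rule was applied to 5 libraries, with size factors from all 6. The library left out was then set against the mean of the other stage. An average of 91.3% (over the 6 libraries left out) of the chosen components were again within the fold limit. The mean of the other stage had also served to choose them, and with total-count scaling, under which the ratios were lower by about 0.45, the average was 92.1%, so the share does not set one scaling above another. It was lowest for day 2 replicate 1, at 85.4% (105 of 123), and highest for day 2 replicate 2, at 93.9% (107 of 114). In separate lists made without 1 library, the size factors came from the 5 libraries kept. Of the 115 components, 94 were chosen again in each of these 6 lists.

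The 115 components took 9.998%, 10.28% and 10.20% of the raw counts of the day 2 libraries and 13.34%, 12.94% and 12.76% of those of the bud libraries, that is 10.2% ± 0.146 on day 2 and 13.01% ± 0.297 in buds (SD, n = 3). The stages did not overlap, at a ratio of the means of 0.781 (log2 −0.36). In the same libraries the summed CPM of the 115 was 116643 ± 1101 on day 2 and 109396 ± 1095 in buds (SD, n = 3), a log2 ratio of 0.09. The 130 components that the rule chose under total-count scaling took 14.2057% of the counts on day 2 and 14.2133% in buds. Total-count ratios are ratios of shares, so near-equal shares follow from that choice. The scaled libraries do not add up to 1000000 CPM: their totals were 1122730 to 1169171 on day 2 and 821705 to 853056 in buds. The share of the 115 in a library is their summed CPM over this total. Because the rule kept the ratios small on this scale, the lower share on day 2 follows from the higher scaled totals. It is not a separate result about the 115. The 145 abundant components that were higher on day 2 took 35.5% ± 0.723 of the counts on day 2 and 13.5% ± 0.648 in buds (SD, n = 3), and the 50 that were lower took 2.64% ± 0.0537 on day 2 and 9.23% ± 0.07 in buds (SD, n = 3).

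Which components met the rule depended on the scaling. TMM factors gave almost the same ratios (a median shift of 0.00077 on the log2 scale) and kept all 115. With the total count alone, every ratio was lower by about 0.45, the median of the 115 was −0.35, and 83 stayed within the fold limit while 32 fell to −0.5 or below. Under the total count 9 of the 115 ratios (7.83%) were above 0, against 76 (66.1%) with the size factors. In the edgeR test at that scaling, 75 of the 115 were called lower and 0 higher. Over all 24351 components tested, 10762 were called lower and 4523 higher at that scaling, against 7089 lower and 7352 higher with the size factors. Scaling by the upper quartile moved the median to 0.24 and put 21 components above the limit. The median of all components without a zero moved in the same way, by −0.45 under the total count and 0.14 under the upper quartile. Under the total count the rule chose 130 components, of which 83 were among the 115.

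**Figure D3:**
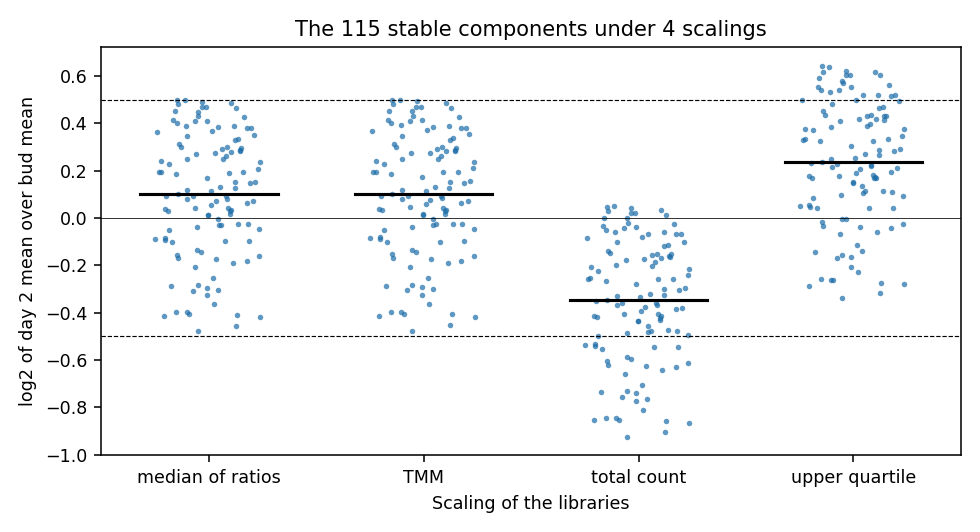
Log2 ratio of the day 2 mean to the bud mean for each of the 115 stable components (points) under 4 scalings, with the median as a line and dashed lines at the fold limit of 0.5. The medians are 0.10 with the median of ratios, 0.10 with TMM, −0.35 with the total count and 0.24 with the upper quartile.

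The stable components were assembled into many contigs. They held 5533 contigs in 372 subcomponents, with a median of 36 contigs a component, against 1 contig over all components, of which 82.6% had a single contig. The median was 16 contigs for the abundant components that were higher on day 2 and 20 for those that were lower. Only comp9449, with a contig of 8009 bp, consisted of 1 contig, and its values were 1684, 1405 and 1694 CPM on day 2 and 1428, 1545 and 1406 CPM in buds. The largest contig of a stable component held a median of 10.8% of its counts, and in 5 of the 115 it held 50% or more. The longest contig had a median of 4598 bp.

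Many of these contigs were counted nearly alike. Of the 4054 contigs of stable components with at least 100 counts in each library, 2467 (60.9%) had another contig of their subcomponent within 10% of their count in all 6 libraries. The study's methods speak of reads that mapped without ambiguity to a feature, but do not say how the contigs of 1 component were told apart. The counts of all libraries add up to 594478216. That sum exceeds the number of unambiguously mapped reads given in those methods, and whether reads entered it more than once was not tested. When such near-equal contigs were counted once, as their mean, the summed level of the 115 was 50.8% of the full sum. Of the 115, 37 then reached 500 CPM and 107 stayed within the fold limit, with log2 ratios from −0.74 to 1.02. Component comp18289 was at 2105 CPM on this count, with a log2 ratio of 0.03, whereas comp18780 was at 400.5 CPM and had a log2 ratio of −0.21, against 0.39 for the full sum, and comp19729 was at 517.5 CPM with a log2 ratio of 0.75. Components comp14296, comp10208 and comp19500 held no near-equal contigs and were unchanged.

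The share of called contigs behind the steady sums lay near that of all contigs, so nothing is read from it. Near-equal contigs each entered this count. In edgeR's quasi-likelihood test on contigs, 3252 of the 5349 tested contigs of the stable components (60.8%) had an adjusted p below 0.05, beside 62.0% of all 90847 contigs tested. Of these, 1927 were higher on day 2 (36.0%, beside 32.4% of all) and 1325 were lower (24.8%, beside 29.6%). Contigs called both ways were found in 82 of the 114 components with 2 or more tested contigs (71.9%), beside 9.94% of the 10662 components of any level with 2 or more, whose median was 3 tested contigs. Among the other abundant components it was 68 of 142 that were higher on day 2 and 24 of 48 that were lower. Of the 64 stable components with 2 or more tested contigs that were not called as a sum, 47 held contigs called both ways, beside 10.5% of 3278. The rule chose sums with little change, which favours contigs called both ways, and stable components hold more contigs than most. Nothing is therefore read from these differences in contigs called both ways. Of 2234 contigs with a mean of 10 CPM or more, 210 (9.40%) were at least 2-fold higher on day 2, beside 21.4% of all 20673 contigs of that level, and 164 (7.34%) were at least 2-fold lower, beside 13.1%. Over contigs of any level, those at least 2-fold higher held 7.64% of the CPM of the stable components, those at least 2-fold lower 7.01%, and those with a change of less than 2-fold 85.3%. Contigs with an absolute log2 ratio below 0.5 held 65.2%.

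To follow such shifts without any scaling, the shares of the contigs in the counts of their component were compared between pairs of libraries. Turnover is the share of a component's counts that lies on other contigs in the second library, and is 0% when all contigs keep their share. Its median over the 115 was 11.1% for the 9 pairs of a day 2 and a bud library, and 3.002% for the 6 pairs within a stage. In 76 of the 114 components with more than 1 contig, every pair between stages exceeded every pair within a stage, beside 14.7% of the 12352 components with 2 or more contigs and counts in every library. The same was found in 72 of 142 of the abundant components that were higher on day 2 and in 33 of 48 of those that were lower. When contigs were first summed to subcomponents, the median between stages was 0.0464%. This value is 0 by construction in the 41 of the 115 components with 1 subcomponent, and the largest subcomponent held a median of 99.9% of a component. The median therefore does not tell where turnover lies. In comp19744 turnover was 50.1% over subcomponents and 54.5% over contigs, and in comp20366 it was 0.00747% and 54.8%. The contigs of a subcomponent include the near-equal ones. The medians between stages were 5.68% for the abundant components that were higher on day 2 and 14.6% for those that were lower. Turnover went with the number of contigs: its median between stages was 0.554% for stable components of up to 9 contigs, 8.14% for those of 10 to 48 and 14.2% for those of 50 or more. Component comp20048, whose sum hardly changed, had a turnover of 11.1% between stages and 3.19% within a stage, while that of comp10208, the tenth in CPM, was 0.369% between and 0.332% within.

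**Figure D4:**
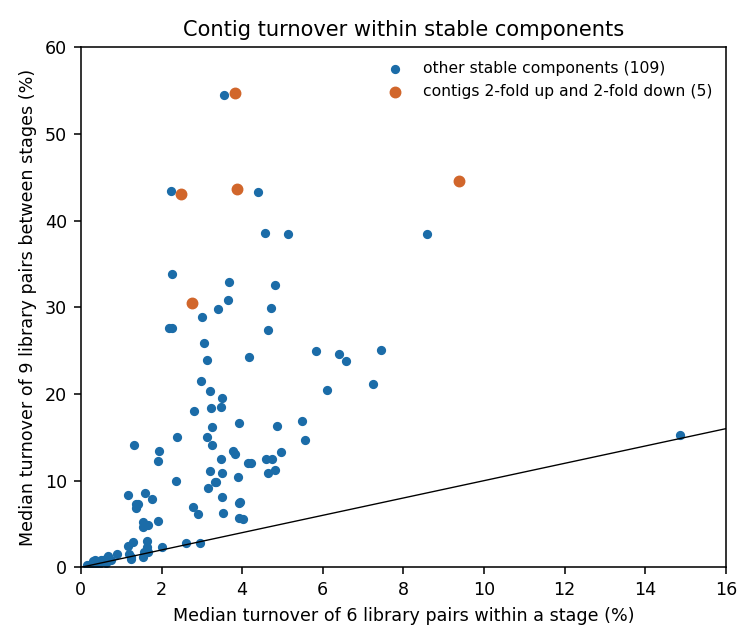
Contig turnover of the 114 stable components with more than 1 contig, as the median of the 9 library pairs between stages (vertical, %) against the median of the 6 pairs within a stage (horizontal, %), with the line of equality. The 5 components with contigs 2-fold higher and 2-fold lower (orange) lie between 30.5% and 54.8% on the vertical axis.

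Among the 10 most abundant, turnover between stages was 32.9% in comp20020, 29.8% in comp19945, 30.9% in comp19598 and 27.7% in comp18780, and below 5% in the other 6. In comp18780 the small subcomponent c2 had 71.4, 78.6 and 69.1 CPM on day 2 and 266.8, 255.0 and 274.2 CPM in buds, while the main one, c0, had 1760, 2024 and 1812 CPM on day 2 and 1125, 1360 and 1158 CPM in buds.

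The largest turnover was that of comp20366, at 54.8% between stages and 3.82% within. Its sum was 1170, 1171 and 1124 CPM on day 2 and 871.2, 915.2 and 940.7 CPM in buds, a log2 ratio of 0.35. Contig comp20366_c1_seq3, of 4877 bp, had 32.4, 35.7 and 34.7 CPM on day 2 and 280.3, 278.6 and 282.8 CPM in buds, a log2 ratio of −3.03. It made up 2.97% ± 0.172 of the component on day 2 and 30.9% ± 1.13 in buds (SD, n = 3). Contig comp20366_c1_seq7 had nearly the same counts (2914, 3569 and 2967 on day 2, against 2878, 3538 and 2896 for seq3), and whether both count the same reads was not tested. Against them stood 26 contigs that were at least 2-fold higher on day 2, which together held 964.3 ± 19.3 CPM on day 2 and 280.1 ± 26.5 CPM in buds (SD, n = 3). All of this took place within subcomponent c1.

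In comp19744 the opposing pieces were whole subcomponents. Its sum was 536.2, 504.0 and 493.4 CPM on day 2 and 514.4, 514.8 and 545.5 CPM in buds, a log2 ratio of −0.04, and its turnover was 54.5%. With near-equal contigs counted once the log2 ratio was −0.63, outside the fold limit. Subcomponent c1 held 325.2 ± 20.1 CPM on day 2 and 69.1 ± 1.11 CPM in buds, a log2 ratio of 2.23. Subcomponent c2 held 133.9 ± 3.86 CPM on day 2 and 394.2 ± 16.2 CPM in buds, a log2 ratio of −1.56 (SD, n = 3 each). Neither overlapped between the stages. A subcomponent is a separate piece of the assembly graph, and whether c1 and c2 of comp19744 belong to 1 gene was not tested.

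In comp19104 the sum was 1017, 942.8 and 1085 CPM on day 2 and 722.0, 1044 and 774.9 CPM in buds. The 732-bp contig comp19104_c1_seq5 had 30, 41 and 32 counts on day 2 and 11232, 18389 and 12030 counts in buds (0.378 ± 0.0379 CPM on day 2 and 126.2 ± 46.2 CPM in buds, SD, n = 3), a log2 ratio of −8.38. Contig comp19104_c3_seq2, of 750 bp, had 244.3, 232.1 and 336.7 CPM on day 2 and 26.7, 33.0 and 57.3 CPM in buds, a log2 ratio of 2.80. The bud total varied more than that of day 2 (coefficients of variation of 6.99% on day 2 and 20.4% in buds), and bud replicate 2 was the highest bud library for seq5 of subcomponent c1.

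In comp20341 the sum was 711.7, 750.3 and 863.0 CPM on day 2 and 946.5, 869.6 and 1018 CPM in buds, a log2 ratio of −0.29, and its turnover was 43.4%. With near-equal contigs counted once the direction turned: the sum was 437.5 CPM on day 2 and 216.4 CPM in buds, a log2 ratio of 1.02 and the only one of the 115 past 2-fold. Contig comp20341_c0_seq1, of 4957 bp, had 244.8, 283.3 and 307.4 CPM on day 2 and 22.9, 24.9 and 25.6 CPM in buds. It made up 35.9% ± 1.70 of the component on day 2 and 2.60% ± 0.232 in buds (SD, n = 3), and no contig with 10% or more of this component in either stage was lower on day 2.

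In comp19817, at 1093, 1139 and 1094 CPM on day 2 and 1022, 977.9 and 991.1 CPM in buds, the turnover was 43.3%. The 721-bp contig comp19817_c0_seq23 had 128.2, 145.1 and 119.8 CPM on day 2 and 12.5, 12.4 and 13.4 CPM in buds, a log2 ratio of 3.36. The longer comp19817_c0_seq40, of 1849 bp, had 146.3, 148.2 and 137.0 CPM on day 2 and 259.1, 233.5 and 247.1 CPM in buds, a log2 ratio of −0.78. The log2 ratio of comp20304 was −0.05, and 0.24 with near-equal contigs counted once. In comp20304, at 592.1, 616.4 and 640.1 CPM on day 2 and 613.0, 682.7 and 613.8 CPM in buds, contig comp20304_c0_seq65 had 74.99, 76.1 and 85.4 CPM on day 2 and 17.2, 24.3 and 20.9 CPM in buds. Its contig comp20304_c0_seq41, of 3641 bp, had 38.5, 41.4 and 41.7 CPM on day 2 and 74.1, 76.4 and 71.0 CPM in buds. The stages did not overlap for any of these 5 contigs of comp20341, comp19817 and comp20304.

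Contigs that were 2-fold higher beside contigs that were 2-fold lower, each with at least 10 CPM and 5% of the component, were found in 5 of the 95 stable components that had 2 or more contigs of that size, beside 1.05% of the 3325 components of any level with such contigs. Among the other abundant components it was 3 of 120 that were higher on day 2 and 0 of 42 that were lower. A rule that keeps the sums level favours such opposing contigs, so nothing is read from these differences. A contig of that size with a 2-fold change in either direction was found in 24 of the 95, beside 39.9% of the 3325. With near-equal contigs merged the count was 13, and with no limit on the share of a contig it was 19. The 5 were comp19104, comp19582, comp19988, comp20304 and comp20366, of which comp19988 was named after its values were seen. Component comp19988 had a log2 ratio of −0.09 (0.29 with near-equal contigs counted once), and its sum was 1339 ± 70.6 CPM on day 2 and 1422 ± 76.3 CPM in buds (SD, n = 3). Contig comp19988_c0_seq4 had 342.6, 316.3 and 302.7 CPM on day 2 and 89.998, 74.5 and 84.1 CPM in buds, a log2 ratio of 1.95. Contig comp19988_c0_seq3 had 190.8, 188.1 and 179.1 CPM on day 2 and 433.0, 416.8 and 383.3 CPM in buds, a log2 ratio of −1.14. These contigs are of like length, 3294 and 3408 bp, and belong to 1 subcomponent.

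In comp19582, the sum was 407.6, 434.9 and 434.2 CPM on day 2 and 559.1, 637.6 and 580.0 CPM in buds, a log2 ratio of −0.48, which turned to 0.32 with near-equal contigs counted once. The 9 contigs of its subcomponent c0 had together 161.8 ± 6.58 CPM on day 2 and 410.6 ± 44.2 CPM in buds (SD, n = 3), while comp19582_c2_seq9 had 60.6, 65.1 and 65.1 CPM on day 2 and 24.0, 24.7 and 23.8 CPM in buds. Components comp19582 and comp19988 met the contig limits in all 6 lists made without 1 library, comp19104 in 5 (not without bud replicate 2), and comp20304 and comp20366 in 3 each. Component comp20304 failed without any one of the bud libraries and comp20366 without any one of the day 2 libraries, and both have contigs close to 5% of the component (5.27% for comp20304_c2_seq1 and 5.01% for comp20366_c1_seq22). Under the total count, comp19582 and comp20366 did not meet the limits.

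**Figure D5:**
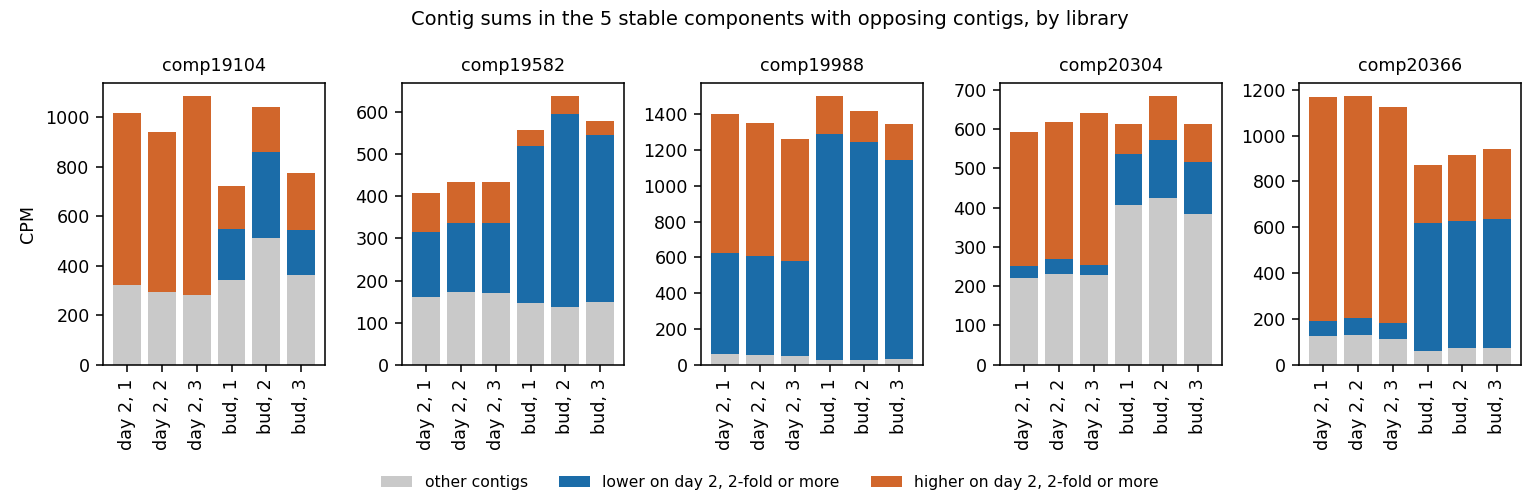
Summed CPM of the contigs that were at least 2-fold higher on day 2 (orange), at least 2-fold lower (blue) and all others (grey) in the 5 stable components with opposing contigs, for the 3 day 2 libraries (left) and the 3 bud libraries (right). In comp19988 the higher contigs hold 54.9% of the component on day 2 and 13.8% in buds, while the bars keep a similar height.

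At the level of subcomponents, opposing 2-fold changes were found in 3 of the 39 stable components with 2 or more subcomponents of 10 CPM and 5%, beside 3.45% of 348 components of any level. Among the other abundant components it was 2 of 22 that were higher on day 2 and 1 of 13 that were lower. The 3 stable components were comp19598, comp19744 and comp20136, the last named after its values were seen. In comp19598, one of the most abundant, subcomponent c6 held 340.4, 218.7 and 324.6 CPM on day 2 and 903.1, 871.6 and 1015 CPM in buds. Its subcomponent c11 held 320.6, 264.9 and 282.4 CPM on day 2 and 113.7, 111.5 and 106.6 CPM in buds. The largest piece, c7, with 101 contigs, had 1719 ± 97.9 CPM on day 2 and 1464 ± 9.57 CPM in buds (SD, n = 3). In comp20136, subcomponent c10 held 569.5 ± 93.1 CPM on day 2 and 243.3 ± 56.0 CPM in buds, and c6 held 121.0 ± 12.2 CPM on day 2 and 392.8 ± 33.2 CPM in buds (SD, n = 3). Of the 173 subcomponents with at least 5% of a stable component, 7 were at least 2-fold higher on day 2, beside 16.8% of the 8157 subcomponents of 10 CPM and 5% of any component, and 11 were at least 2-fold lower, beside 14.1%. The changed subcomponents lay in 13 components.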

How the data were processed

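Corolla RNA was sequenced as paired-end reads in 3 day 2 and 3 bud libraries. Per the study's methods, the authors trimmed the reads with the FASTX toolkit (the submitters' processing notes list CASAVA 1.8.2 and Trimmomatic 0.22), built contigs *de novo* with Trinity, aligned the reads to these by TopHat and obtained counts with HTSeq. The deposited table holds raw counts for each contig and its length in bp, library by library. The table was assigned to samples by column names, and 0 columns of per-sample values were left out.

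Counts were summed over contigs sharing a component number, and size factors came from the 29550 components with no zero. Tests used R 4.3.3 and edgeR 4.0.16 (filterByExpr at 10 counts and a total of 15, glmQLFit and glmQLFTest, stage as the only term, the same size factors for components and contigs), with Benjamini-Hochberg adjustment over all features tested and a threshold of 0.05. Alternatives were TMM, total-count and upper-quartile scaling, no filter, DESeq2 1.42.0, limma-voom (limma 3.58.1), the edgeR exact test at common dispersion, the replicate block, other limits and levels of summing, and each library left out. The counting of near-equal contigs once was chosen after seeing the data. In simulated counts, a small part of the features was changed 2-fold, and the quasi-likelihood test recovered nearly all of these. Its share of false calls was near the threshold for components and above it for contigs, and the exact test and DESeq2 made more false calls. The simulated dispersion differed between features, whereas the exact test assumed a common value, so the simulation does not rank these tests. Changes within the fold limit of the rule and near-equal contigs were not simulated, so these rates do not carry over to the stable components. RPKM divides CPM by contig length. Counts may hold a read more than once, so no counting intervals are given. P-values weigh the difference between the stages against the estimated spread between the replicates of a stage.

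The components and lists were chosen with earlier results of these data known. Named were the 10 stable components of highest CPM, the 3 of smallest log2 ratio, the 3 on each side of each limit, the 3 of largest coefficient of variation, the 6 of largest turnover with their contigs of 10% or more in either stage, and the components numbered as in the study.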

Additional observations from a re-analysis of the deposited data

How the results depend on the processing

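The count of 115 stable components was 102 to 130 under the other scalings (TMM, total count, upper quartile), 106 subcomponents, 114 with contigs of 500 bp or more, and 109 to 129 when 1 library was left out. It was 320 at a limit of 250 CPM, 37 at 1000 CPM, 60 at a log2 limit of 0.25, 178 at a log2 limit of 1, 7 with the largest contig of each component alone and 39 with near-equal contigs counted once, of which 34 were among the 115. The share of counts was 10.4% on day 2 and 13.3% in buds for components chosen with TMM, and 14.2057% on day 2 and 14.2133% in buds for those chosen with the total count. Without 1 library it ranged from 9.72% to 11.04% on day 2 and from 12.4% to 14.3% in buds. The number of stable components called, 50, was 43 to 55 without 1 library, 52 with DESeq2 and 61 with limma-voom. With edgeR's exact test and a common dispersion it was 0, and 9 had an unadjusted p below 0.05. Over all components tested, 13232 to 14371 (of 25983 to 26377) were called without 1 library. Of 24351 components, DESeq2 called 14347, limma-voom 14612 and the exact test 13966. The number of contigs called, 3252, was 2882 to 3163 without 1 library, beside 51248 to 54693 of all 93301 to 93955 contigs tested. Stable components with opposing contigs numbered 12 at a contig log2 ratio of 0.5, 3 at 1.5, 19 with no limit on the share of a contig, 3 at 50 CPM, 3 for subcomponents, 13 with near-equal contigs merged, and 5 to 6 without 1 library. Apart from subcomponents, no share over all components was worked out for these settings. The median turnover was 0.0464% over subcomponents and 10.5% to 11.1% without 1 library. The median coefficient of variation, 5.20%, was 4.44% to 5.06% without 1 library. Leaving out a library leaves fewer values in its stage, which by itself tends to lower this median. The cause of these shifts was not tested, beyond the limits that the settings themselves change.

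Replicate numbers are shared between the stages, but no source says that a number marks a shared plant or day. Deviations from the stage means correlated at 0.0877, 0.201 and 0.129 for replicates 1, 2 and 3, so the numbers were not taken to pair the samples, although every library correlated best with its own number. With the replicate block, 52 stable components and 3283 of their contigs were called, beside 14031 of all 24351 components and 55987 of all 90847 contigs tested.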
